A study of Rattus norvegicus with 102 samples.

Results

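Lysosomal enzymes and membrane proteins were followed as 39 genes among the 26284 genes of the Illumina table, taken by symbol from a list drawn up with earlier results of these data known. The 39 genes were grouped by role into 10 peptidases, 12 enzymes that take apart glycans, 9 enzymes and carriers of lipids, 7 membrane proteins and progranulin. Each of them had 1 row in each table, and all 39 passed the minimum mean of 10 normalised reads in both poly-A tables. The animals were 34 male rats (strain written as Fisher 344 in the labels) that differed in age and in water maze performance and carried no transgene or drug treatment. The 10 young rats (Y) were 5 to 6 months old. The 24 aged rats were 17 to 22 months old and had been classed in the maze as 12 unimpaired (OG) and 12 impaired (OB). CA1, CA3 and dentate gyrus (DG) were dissected from 1 hippocampus of each rat, and every subfield of every rat gave 1 library in each of 3 sequencing tables, an Illumina and an Ion Proton poly-A table and a table whose columns carry the letters WT.

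The lysosome is the acidic organelle in which cells break down material delivered by endocytosis, phagocytosis and autophagy. Soluble hydrolases each cut a particular bond in proteins, glycans or lipids, and proteins of the limiting membrane protect it, move the products out and sense the state of the organelle. All brain cells have lysosomes, but microglia, the resident phagocytes, are rich in cathepsins and in membrane proteins such as CD68, and inherited loss of many of these genes causes lysosomal storage disease or neuronal ceroid lipofuscinosis.

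Library depth ranged from 3250000 to 42800000 reads in the Illumina table, with a median of 10700000, from 3540000 to 20600000 in the WT table and from 4470000 to 21400000 in the Ion Proton table. The members were well covered, and only Cd68 and Sgsh fell below 10 reads in any Illumina library, with lowest counts of 3 and 5. By subfield markers, 16 of the dissections lay nearer to another subfield than their own, of which 11 were CA3. In the Ion Proton table the CA1 library of unimpaired rat R2232 and the CA3 library of impaired rat R1931 had the fewest detected genes of their subfields (15057 and 15665, against medians of 18664 and 18502), and each held the lowest value of its subfield for 14 of the 39 members. In CA3, the library of impaired rat R2238 had the highest summed level of microglia markers (16500 against at most 9990 in the other 33), and the library of young rat R9876 had a summed level of leptomeninges markers of 150000 against a median of 3670. Without the libraries nearer to another subfield the age calls, described below, of Naglu in the mean of subfields, Ctsb in DG and Tpp1 in CA1 and DG were lost. The Illumina age changes in DG of the members called there were smaller without them, as for Npc2 (0.287, and 0.331 with them) and Ctss (0.284 and 0.318). Cd68 was the exception (0.947 and 0.943). The part of these dissections in the age changes was not tested.

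A RefSeq promoter (250 bases before to 50 after the gene start, assembly GRCr8) was matched by symbol to 34 of the 39 members. No match was made for Ppt1, Psap, Asah1, Hexa and Ctsb. The E-box CACGTG, which is the core of the CLEAR element bound by TFEB, the main transcription factor of lysosomal genes, stood in 9 of these 34 promoters (26.5%) and in 6.42% of all 33469 promoters. The longer palindrome TCACGTGA, which contains that E-box, stood in 4 (11.8%) against 0.777% of all. The site GAGGAAGT (ACTTCCTC on the other strand), of the type bound by the myeloid factor PU.1, stood in 3 (8.82%), Ctsc, Ctss and Gla, against 2.42% of all. Both strands were searched, and a match describes letters and not binding. The 250 bases before the start are printed 5′ to 3′ on the gene's own strand, with the matched motif in capitals. Ctsd and Ctss are shown because both rose with age and carry different motifs, Lamp1 because it had the most E-boxes of any member, and Ctsz because it had the smallest p with age and neither motif. They lie at chr1:206968822-206969071 (minus strand), chr2:185775146-185775395 (plus strand), chr16:83075064-83075313 (minus strand) and chr3:183653848-183654097 (minus strand) of GRCr8, in the order Ctsd, Ctss, Lamp1 and Ctsz.
Ctsd: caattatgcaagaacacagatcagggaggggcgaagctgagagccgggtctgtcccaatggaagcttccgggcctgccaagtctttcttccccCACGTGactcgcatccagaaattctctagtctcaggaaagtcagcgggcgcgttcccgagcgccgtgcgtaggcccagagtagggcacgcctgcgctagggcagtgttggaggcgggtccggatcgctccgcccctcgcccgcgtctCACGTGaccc
Ctss: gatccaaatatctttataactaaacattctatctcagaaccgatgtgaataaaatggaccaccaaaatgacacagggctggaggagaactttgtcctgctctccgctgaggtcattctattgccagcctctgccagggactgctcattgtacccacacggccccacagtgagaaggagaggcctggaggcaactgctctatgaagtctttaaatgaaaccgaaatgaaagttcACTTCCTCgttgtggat
Lamp1: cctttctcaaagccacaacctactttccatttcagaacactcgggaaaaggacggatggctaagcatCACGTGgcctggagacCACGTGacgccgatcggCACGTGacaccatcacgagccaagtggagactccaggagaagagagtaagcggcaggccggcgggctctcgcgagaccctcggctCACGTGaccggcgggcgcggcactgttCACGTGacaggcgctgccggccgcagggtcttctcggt
Ctsz: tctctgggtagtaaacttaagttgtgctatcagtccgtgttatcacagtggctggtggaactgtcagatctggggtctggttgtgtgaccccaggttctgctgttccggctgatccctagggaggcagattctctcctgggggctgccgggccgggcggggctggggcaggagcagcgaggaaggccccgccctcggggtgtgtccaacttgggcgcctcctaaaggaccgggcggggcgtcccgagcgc
Lamp1, a glycoprotein that coats the inner face of the lysosomal membrane, held 5 E-boxes, starting 183, 167, 150, 65 and 38 bases before the gene start, and it was the 1 promoter of 33469 with at least 5. Ctsd held 2, starting 157 and 10 bases before the start, and Ctss held the PU.1-type site 17 bases before it. Among the members with a matched promoter, CACGTG stood in 1 of the 10 that were retested for age in the mean of subfields, described next, and in 8 of the 24 that were not.

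Whether lysosomal genes changed with age was asked in each subfield and in the mean of the 3 subfields of each rat, with 24 aged against 10 young rats. In the mean of subfields 11 of 39 members rose with age (28.2%) and none fell. The 11 were the peptidases Ctsz, Ctsd, Ctss, Ctsa and Tpp1, the glycan enzymes Naglu and Hexa, the sterol carrier Npc2, the membrane proteins Cd68 and Laptm5, and Grn. They passed p under 0.01 in the Illumina table and one-sided p under 0.05 for a change of the same sign in Ion Proton libraries (limma on log2(normalised reads + 1)), called retested here. Ctsz, Ctsd, Ctss, Npc2 and Laptm5 are among the genes the study itself names from these libraries, so the count is not independent evidence of their direction. Over all 14179 genes, 1.68% were retested in either direction and 1.3% were higher in aged rats. The 2 tables hold separate libraries of the same rats, so the retest bears on technical error and not on the spread between animals. The median log2 change of the members was 0.08 and 36 of 39 were above 0, against a median of -0.01 and 44.1% above 0 for all genes. The members below 0 were Ctsk, Smpd1 and Lipa. In Ion Proton libraries 32 of 39 were above 0, and in WT libraries 32 of 37 tested, without Cd68 and Sgsh.

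**Figure D1:**
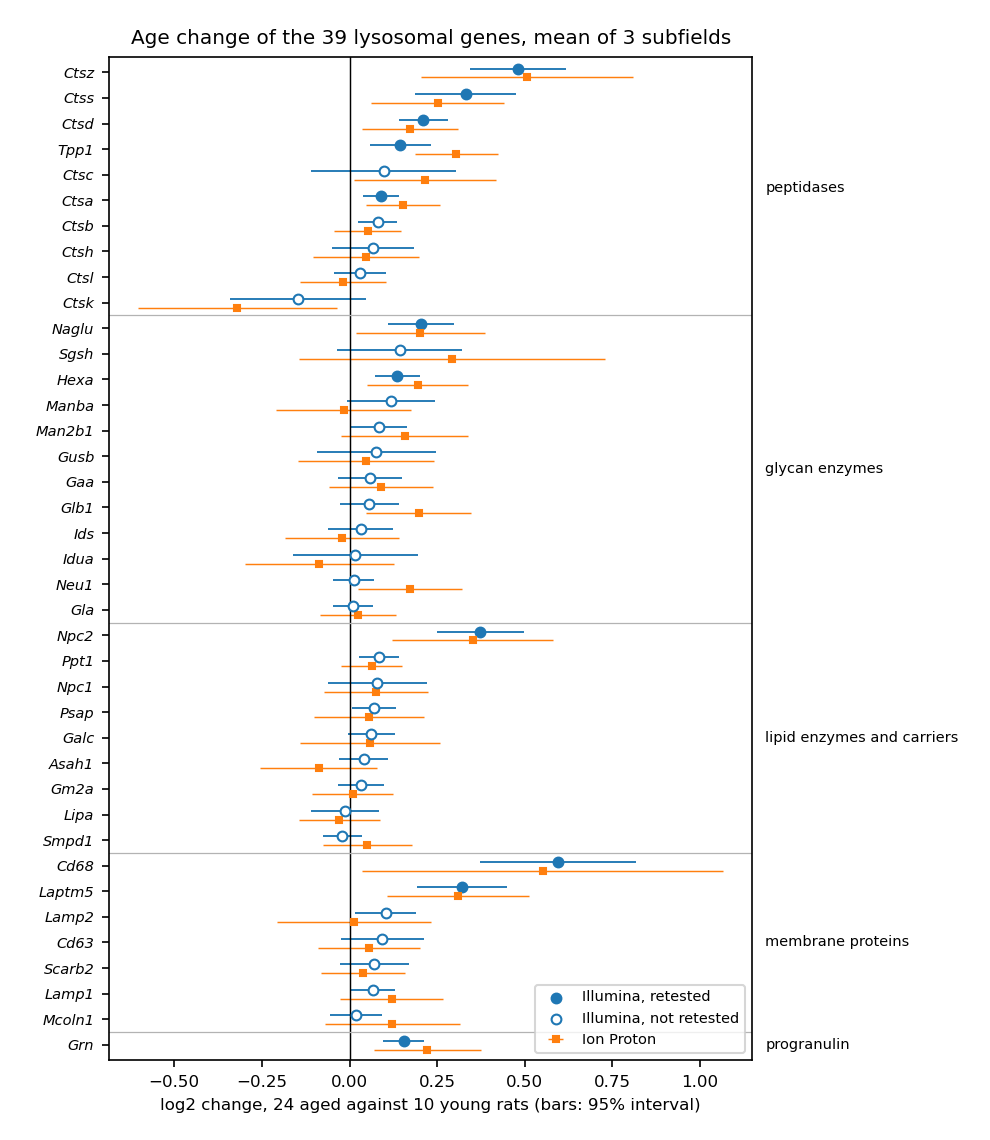
Log2 change with age of each of the 39 genes in the mean of the 3 subfields (x axis, 24 aged against 10 young rats), ordered by role and size, for Illumina (circles, filled where retested) and Ion Proton libraries (squares), with 95% intervals as bars. The 11 filled circles all lie to the right of 0, from 0.09 for Ctsa to 0.60 for Cd68, and Ctsk is the one gene whose Ion Proton interval lies below 0.

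Cathepsin Z (Ctsz, ENSRNOG00000050697, chromosome 3), a carboxypeptidase, had the smallest p of the members. Its level in the mean of subfields ran from 147 to 222 normalised reads in the young rats (median 176) and from 209 to 319 in the aged rats (median 244). All 24 aged rats were above the young median and 19 were above the highest young rat. The change was 0.48 ± 0.07 (log2 ± SE, adjusted p = 2.1e-05), and it was 0.51 in the Ion Proton and 0.49 in the WT table. It was retested in CA1 and in DG. In CA3 its Illumina change was 0.41 ± 0.12 (p = 0.00103) and its Ion Proton change 0.41 with p = 0.19. The Ion Proton CA3 library of rat R1931 gave 16.1 reads for Ctsz, where the Illumina library of the same tissue gave 205.

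Cathepsin D (Ctsd, ENSRNOG00000020206, chromosome 1), the main aspartic protease of lysosomes, had a smaller change with little overlap between the ages in Illumina libraries. The young rats ran from 3920 to 4610 (median 4080) and the aged rats from 4230 to 5610 (median 4820), so that 24 of 24 aged rats exceeded the young median and 19 the highest young value. In Ion Proton libraries 8 and in WT libraries 14 of 24 aged rats exceeded the highest young value. The change was 0.21 ± 0.03 (adjusted p = 1.92e-04), with 0.17 in the Ion Proton and 0.16 in the WT table. It was retested in DG (0.17 ± 0.05). Both calls were lost among the rats numbered below 9000 alone, and the DG call also with WT in place of Ion Proton libraries. In CA1 the Illumina change was 0.29 ± 0.07, and the Ion Proton change of 0.19 had p = 0.132. Ctsd was retested in CA1 with DESeq2, with edgeR, with WT in place of Ion Proton libraries and with a term for the number series. It was also retested there among the rats numbered from 9000 up alone and without the deeply sequenced rats.

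Cathepsin S (Ctss, ENSRNOG00000021157, chromosome 2) is a protease of antigen-presenting cells that trims the invariant chain of MHC class II. It ran from 2060 to 3330 (median 2490) in young rats and from 2460 to 4570 (median 3210) in aged rats. In Illumina libraries the groups overlapped more than for Ctsd, and 7 of 24 aged rats exceeded the highest young rat. In Ion Proton libraries 8 did for each gene, and in WT libraries 20 for Ctss and 14 for Ctsd. The change was 0.33 ± 0.07 (adjusted p = 0.00925), with 0.25 and 0.35 in the Ion Proton and WT tables. It was the only member retested in CA3 (0.32 ± 0.09), and it was also retested in DG (0.32 ± 0.08). The CA3 call was lost with quantile normalisation, in each series of rat numbers alone and without rat R2175, and the DG call without the deeply sequenced rats, among the rats numbered from 9000 up alone and without rat R2221. In CA1 it passed the adjusted threshold in the Illumina table (0.36 ± 0.09, adjusted p = 0.0484), with an Ion Proton change of 0.26 (p = 0.118). Ctss was retested in CA1 with DESeq2, with edgeR, with WT in place of Ion Proton libraries and with a term for the number series. It was also retested there among the rats numbered from 9000 up alone.

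Of the other peptidases, the tripeptidyl peptidase Tpp1, lost in a childhood form of neuronal ceroid lipofuscinosis, ran from 1060 to 1230 (median 1150) in young and from 1110 to 1520 (median 1260) in aged rats. The ranges overlapped, with 14 of 24 aged rats above the highest young rat. It rose by 0.15 ± 0.04 in the Illumina and 0.31 ± 0.06 in the Ion Proton table. It was retested in CA1 and DG, but the DG call was lost under 6 of 13 other settings (edgeR and quantile normalisation among them) and without any of 13 single rats, and the CA1 call under 3 settings and without any of 9 single rats. The call in the mean was lost among the rats numbered below 9000 alone and without the 7 deeply sequenced rats. In Ion Proton libraries 20 of 24 aged rats lay above the highest young rat. The protective protein Ctsa, a carboxypeptidase that stabilises neuraminidase and beta-galactosidase, rose by 0.09 ± 0.03, and its young range of 1800 to 2180 held most aged rats (median 2050), of which 2 of 24 lay above it and 23 above the young median. Ctsb was retested in DG alone, at 0.12 ± 0.04, a call lost under 4 of 13 other settings and without any of 4 single rats, and its age change was not shown to differ between subfields. Ctsc, Ctsh and Ctsl were not retested anywhere. Ctsk, known best as the collagenase of osteoclasts, gave -0.15 ± 0.10 (p = 0.131) in Illumina and -0.32 ± 0.14 (p = 0.0279) in Ion Proton libraries. Its CA3 change in Illumina libraries was -0.38 (p = 0.0381), and -0.19 without the CA3 library of young rat R9876, an alternative chosen after seeing the data.

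Of the 12 glycan enzymes all gave a change above 0 and 2 were retested. Naglu, which acts on heparan sulfate, rose by 0.20 ± 0.05 (adjusted p = 0.0167), and Hexa, the alpha subunit of beta-hexosaminidase A, by 0.14 ± 0.03 (adjusted p = 0.0186). Naglu ran from 119 to 171 in young and from 134 to 183 in aged rats, and Hexa from 651 to 798 and from 727 to 870. Both pairs of ranges overlapped, with 8 and 11 of 24 aged rats above the highest young rat. The call of Naglu was lost in each series of rat numbers alone and without the libraries nearer to another subfield, that of Hexa among the rats numbered below 9000 alone, and the DG call of Naglu among the rats numbered from 9000 up alone and with WT in place of Ion Proton libraries. The other 10 (Gaa, Gla, Glb1, Gusb, Idua, Ids, Man2b1, Manba, Neu1 and Sgsh) lay between 0.01 and 0.14 and were not retested in any subfield.

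Among the lipid enzymes and carriers only Npc2 was retested. NPC2 is the soluble protein that hands cholesterol to the membrane protein NPC1 for export from the lysosome. Npc2 (ENSRNOG00000012062, chromosome 6) ran from 1100 to 1650 (median 1250) in young and from 1330 to 2040 (median 1670) in aged rats. All 24 aged rats exceeded the young median and 12 the highest young rat, which was rat R9780. The change was 0.37 ± 0.06 (adjusted p = 2.72e-04), and 0.35 in both other tables. Npc2 was retested in DG, but not in CA1 (Illumina change 0.455, limma p = 1.06e-06) or CA3 (0.333, p = 0.0017). Its partner Npc1 gave 0.08 ± 0.07 (p = 0.263). The difference between the partners was not tested. The sphingolipid hydrolases and activators Asah1, Galc, Gm2a, Psap and Smpd1, the thioesterase Ppt1 and the acid lipase Lipa lay between -0.02 and 0.08.

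Of the 7 membrane proteins, 2 were retested. Cd68, a glycoprotein of phagocyte lysosomes, had the largest age change of the 39 members and the fewest reads of those retested. In DG it ran from 3.64 to 15.4 (median 11.2) in young and from 10.6 to 38.3 (median 22.1) in aged rats, and 20 of 24 aged rats lay above the highest young rat. These were Illumina libraries, and in Ion Proton libraries 7 of 24 did. The DG change was 0.94 ± 0.16 (adjusted p = 0.00209) in Illumina and 0.41 (p = 0.0818) in Ion Proton libraries. In the mean of subfields it was 0.60 ± 0.11 (adjusted p = 0.00126) and 0.55. The DG call was lost with quantile normalisation, among the rats numbered below 9000 alone and without any of 11 single rats, over which the Illumina change stayed between 0.80 and 1.01. The call in the mean was lost with a pseudocount of 0.1, among the rats numbered below 9000 alone and without rat R9877. Neither call could be made with WT in place of Ion Proton libraries, since Cd68 lay below the minimum level there. Laptm5, a membrane protein of blood and immune cell lysosomes, ran from 358 to 548 (median 442) in young and from 430 to 682 (median 547) in aged rats. Its change was 0.32 ± 0.06 (adjusted p = 0.00294), with 0.31 and 0.34 in the other tables, and 12 of 24 aged rats exceeded the highest young rat. Lamp1, Lamp2, Cd63, Scarb2 and the calcium channel Mcoln1, which are lysosomal in most cell types, gave 0.02 to 0.10 and none was retested.

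Grn encodes progranulin, a secreted and lysosomal growth factor whose loss causes frontotemporal dementia or, with both copies lost, a neuronal ceroid lipofuscinosis. It ran from 845 to 971 (median 903) in young and from 917 to 1130 (median 1000) in aged rats. The overlap was small in Illumina libraries, with 20 of 24 aged rats above the highest young rat. More aged rats overlapped in the other tables, with 8 above the highest young rat in Ion Proton and 10 in WT libraries. The change was 0.16 ± 0.03 (adjusted p = 0.00139), and 0.22 and 0.10 in the Ion Proton and WT tables. It was retested in CA1 and DG.

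**Figure D2:**
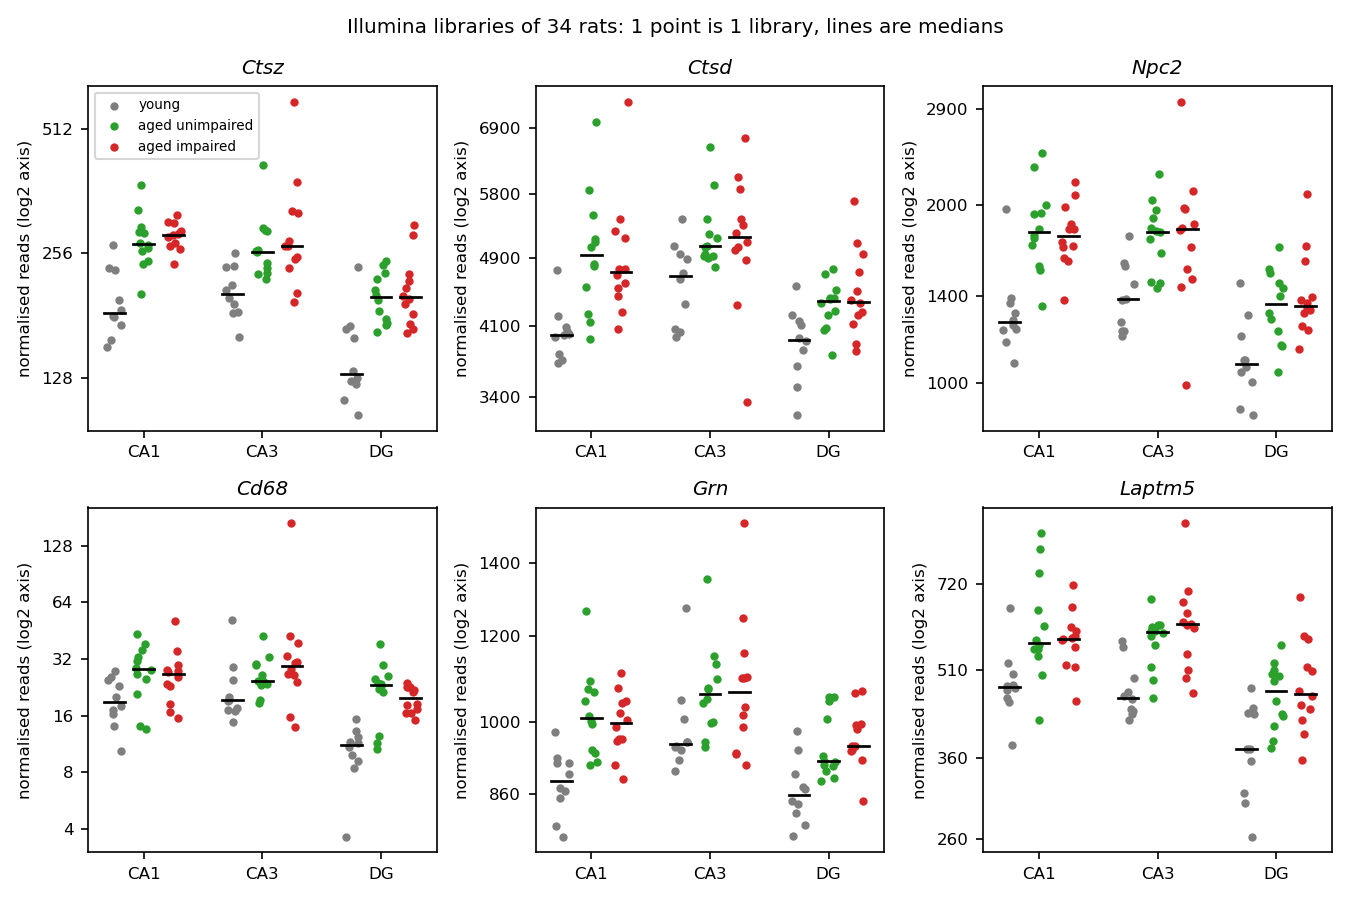
Normalised reads (y axis, log2 scale) of 6 members in every Illumina library by subfield, for young, aged-unimpaired and aged-impaired rats, with 1 point per library and a line at each median. In each panel the aged medians lie above the young median of the same subfield, the aged groups overlap each other, and the highest CA3 point of Ctsz, Npc2, Cd68, Grn and Laptm5 is the library of rat R2238.

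Taken by subfield, 6 members were retested in CA1 (Ctsa, Ctsz, Grn, Hexa, Laptm5 and Tpp1), against 0.832% of the genes tested there. In CA3 the count was 1 (Ctss, 0.393%). In DG it was 10 (Cd68, Ctsb, Ctsd, Ctss, Ctsz, Grn, Laptm5, Naglu, Npc2 and Tpp1, 1.07%). At an adjusted p under 0.05 in the Illumina table alone, 5 members passed in CA1 (Ctss, Ctsz, Grn, Hexa and Npc2, 0.338% of genes), none in CA3 (0% of genes, 8 members and 3.31% of genes at an unadjusted p under 0.05, and 1 member with DESeq2) and 2 in DG (Cd68 and Ctsz, 0.3%). Members above 0 numbered 37, 28 and 36 of 39, with median log2 changes of 0.12, 0.04 and 0.07, against medians of 0.00 to -0.01 for all genes. With edgeR the counts were 11 in CA1 (1.1% of genes) and 4 in CA3 (1.1%), with DESeq2 11 (1.17%) and 4 (0.681%), and with WT in place of Ion Proton libraries 10 (1.38%) and 4 (0.533%). The study, which used DESeq2, lists Ctss, Ctsz and Npc2 as higher in aged rats in every subfield on both platforms. With limma, Ctss and Npc2 were not retested in CA1, nor Ctsz and Npc2 in CA3. With DESeq2 and with edgeR, Ctss, Ctsz and Npc2 were each retested in CA1, CA3 and DG. A term for the number series gave 10 in CA1 (1.32%). Of the 17 subfield calls, those of Hexa in CA1 and of Laptm5 and Npc2 in DG were kept under all 13 other settings and without any single rat. In 1 or both series of rat numbers alone, the calls of Ctsz and Grn in CA1 and DG and of Ctsa and Laptm5 in CA1 were lost, and with WT libraries that of Grn in DG. The CA1 call of Ctsa was also lost without rat R1922 and without rat R9879. The CA1 count was 10 without rat R2232 and 11 without young rat R9780, and the CA3 count 4 without rat R1931 and 0 without young rat R2175. Whether the age change itself differed between subfields was tested with rat as a block, and no member passed in the Illumina table (0% of genes). At an unadjusted p under 0.05, 2 members differed between CA3 and CA1 (Ctsa and Cd63, 3.19% of genes), none between DG and CA1 (0.564%), and 2 between DG and CA3 (Manba and Cd68, 1.84%). The different counts of the subfields therefore do not come with a called difference in size.

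**Figure D3:**
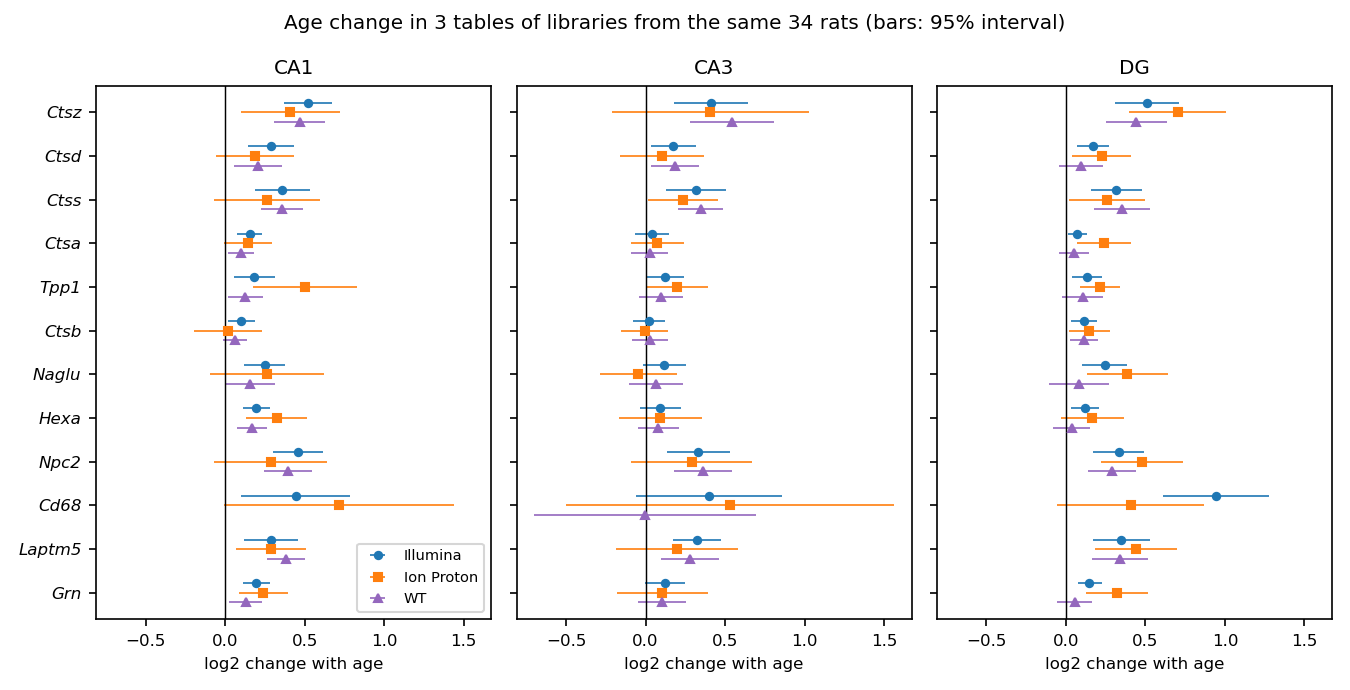
Log2 change with age of the 12 members retested in any subfield or in the mean (y axis), in CA1, CA3 and DG (panels), for Illumina, Ion Proton and WT libraries of the same 34 rats, with 95% intervals. Most estimates lie right of 0 in every panel, and the interval of Cd68 in Ion Proton CA3 libraries, with a change of 0.53, is the widest.

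The rats carry numbers in 2 series, below 9000 (5 young and 13 aged) and from 9000 up (5 young and 11 aged), and the labels do not say what the series mean. The study's methods name an Arizona and a Florida site, each with its own supplier, whose numbers of young and aged rats equal those of the series, but no source used here ties a rat number to a site. All 11 members had a change above 0 in both series of the Illumina table. They had been picked for a low Illumina p over these same rats, so this is not independent support. Ctsz gave 0.58 and 0.38, Ctsd 0.19 and 0.23, Ctss 0.33 and 0.36, Npc2 0.39 and 0.38, Laptm5 0.34 and 0.32, Cd68 0.73 and 0.47, Grn 0.18 and 0.13, and Naglu 0.28 and 0.13, in that order of series. With fewer rats, 6 members were retested in the low (0.835% of genes) and 9 in the high series (2.08%). Those of Cd68, Ctsd, Hexa, Naglu and Tpp1 were lost in the low and those of Ctsa and Naglu in the high series.

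The maze class of the aged rats was the other question of the design. Each class was compared with the same 10 young rats, so both comparisons share those controls. Of the 39 members 10 rose in unimpaired rats (1.21% of genes in either direction) and 11 in impaired rats (1.43%), the additional one being Cd68, whose changes were 0.58 ± 0.13 and 0.61 ± 0.13. For Ctsz the changes were 0.45 in unimpaired and 0.51 in impaired rats, for Npc2 0.37 and 0.38, and for Ctsd 0.21 in each. Between impaired and unimpaired rats no member was retested in the mean of subfields (0.0564% of genes), in CA1 (0.62%), in CA3 (0.0211%) or in DG (0.121%). At an unadjusted p under 0.05 in Illumina libraries 0 members differed in the mean (1.36% of genes), 1 in CA1 (Galc, -0.16, 5.71%), 0 in CA3 (1.4%) and 1 in DG (Lipa, 0.16, 3.85%), and edgeR and DESeq2 also retested none. The 95% intervals of impaired minus unimpaired in the mean ran from -0.09 to 0.21 for Ctsz, from -0.07 to 0.08 for Ctsd, from -0.13 to 0.14 for Npc2 and from -0.06 to 0.07 for Grn. For Cd68 the interval was the widest of these, from -0.21 to 0.28.

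The age change came with markers of microglia. Of 20 markers 19 were in the table, none without reads in any group of Illumina libraries, and 13 of the 19 tested were retested for age in the mean of subfields, led by Cx3cr1 (0.29), Trem2 (0.39), Irf8 (0.33) and C1qa (0.33). Their summed level ran from 6280 to 9280 in young and from 6480 to 12000 in aged CA1, from 6530 to 8660 and from 6910 to 16500 in CA3, and from 4890 to 7410 and from 5460 to 9510 in DG. In tissue of mixed cells, more cells of a type and more RNA per cell cannot be told apart. The part of microglia in the members' age changes was not tested. No gene of the border macrophage, oligodendrocyte, precursor, endothelium, neuron, interneuron, leptomeninges or blood lists was retested (limma, with 1 gene of all these lists, a precursor marker, at an unadjusted p under 0.05 in the Illumina table), and of the astrocyte markers only Gfap (0.43). The study itself lists Cx3cr1, Trem2 and Gfap as higher with age in every subfield of these rats, so their calls are not independent evidence of direction.

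Members differed in how they varied with these markers between the 24 aged rats, over the mean of subfields, with p-values adjusted over 13888 genes tested in both poly-A tables. In Illumina libraries Laptm5 varied most closely with the summed marker level (r = 0.94, rho = 0.93, permutation p = 1e-05 for each, the smallest that 100000 permutations can give, adjusted p = 0.00302 and 0.00375). Without the 2 rats farthest from the median it was 0.92, and within the series it was 0.91 in each. Npc2 followed (r = 0.89, rho = 0.91, 0.85 without 2 rats, 0.93 and 0.80 in the low and high series), then Ctss (r = 0.86, rho = 0.85, 0.79 without 2 rats, 0.79 and 0.87). The order differed in Ion Proton libraries, where Npc2 came first (r = 0.90), then Lamp1 (0.78) and Laptm5 (0.75), and Ctss gave 0.52 and did not pass (adjusted p = 0.0583). Ctsd, which rose with age with a smaller p than Npc2, did not pass in Illumina libraries (r = 0.34, rho = 0.35, permutation p = 0.104 and 0.0917, adjusted p = 0.282 and 0.263), with 0.57 in the low and -0.25 in the high series. In Ion Proton libraries Ctsd gave r = 0.70 (adjusted p = 0.00448), with 0.79 and 0.26 in the series.

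Over all members, r in Illumina libraries was above 0 for 29 of 39, against 48.4% of genes, and 13 passed adjustment over all genes (7.76% of genes), 12 of them with a positive r (5.14%). In Ion Proton libraries 13 passed (14.8% of genes), all with a positive r (8.83%). The negative r was that of Mcoln1 in Illumina libraries (-0.70), which had r = 0.15 in Ion Proton libraries. Of the 12, 5 had a negative r within the high series of Illumina libraries (Glb1, Gusb, Lamp2, Manba and Scarb2), so that the pooled relation did not hold there, and of the 13 in Ion Proton libraries 1 did, Manba. The marker levels of the series ran from 12.67 to 13.21 and from 12.98 to 13.27 on the log2 scale. Tpp1 went opposite ways in the tables, with r = 0.52 over all rats (adjusted p = 0.0741), 0.57 in the low and -0.76 in the high series of Illumina libraries and -0.15, -0.28 and 0.16 in Ion Proton libraries. The 5 genes that passed by r in both poly-A tables with a positive r in each series of each table were Ctsz, Gm2a, Lamp1, Laptm5 and Npc2. By rho Gm2a did not pass in both tables. Of the 5, Gm2a and Lamp1 were not retested for age.

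**Figure D4:**
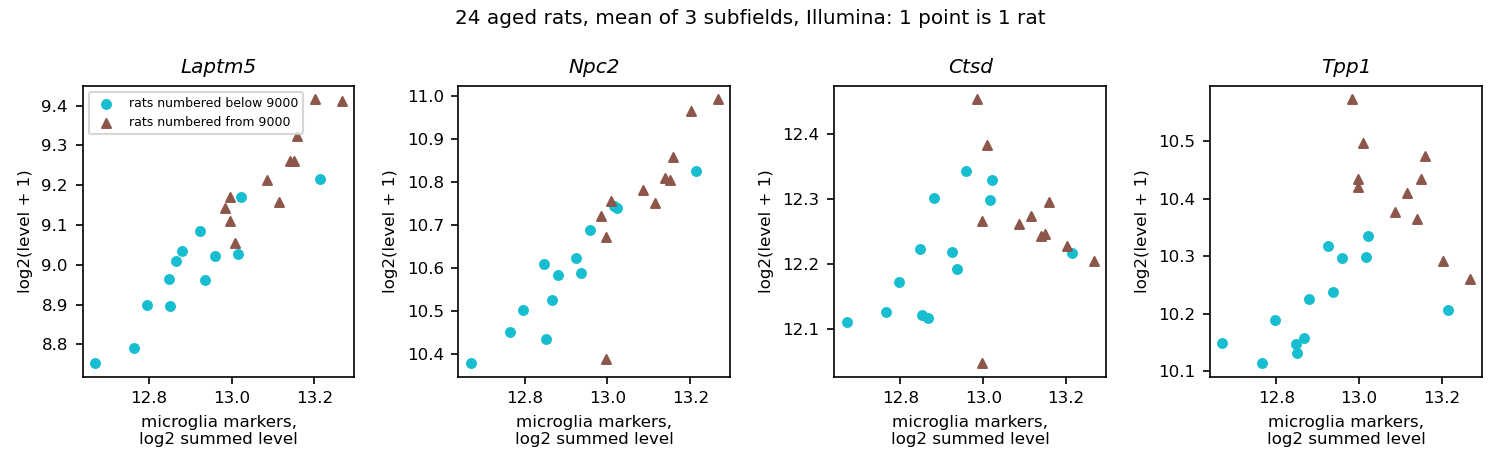
Level of 4 members (y axis, log2 of normalised reads + 1, mean of 3 subfields) against the log2 summed level of 19 microglia markers (x axis) in the 24 aged rats, 1 point per rat, with the rat number series as symbols. Laptm5 and Npc2 rise along both series (r = 0.94 and 0.89), while Ctsd and Tpp1 have a negative r within the rats numbered from 9000 (-0.25 and -0.76), which was positive in Ion Proton libraries (0.26 and 0.16).

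Where in the hippocampus these genes were most expressed was asked across all 34 rats. Of the 39 members 13 were called higher in CA1 and 17 higher in CA3 than in DG, 8 of them in both, and 2 were called between CA1 and CA3. These calls had an adjusted p under 0.05 in both poly-A tables. CA1 was lower than DG for 2 members, where 26.4% of all genes were called, 13.1% as higher and 13.2% as lower. CA3 was lower than DG for 1 (27.9% of genes called, 13.9% as higher, 14% as lower). The called members were 38.5% of the 39 for CA1 and 46.2% for CA3, both above the share of all genes, and the direction was one-sided, with 33 and 36 of 39 members above 0 and median log2 differences of 0.15 and 0.21 against 0.00 and 0.01 for all genes. CA1 against CA3 gave 2 calls, both lower in CA1 (14.1% of genes in either direction). The members higher in CA1 than in DG were Cd63, Ctsa, Ctsc, Ctsh, Ctsk, Gaa, Gusb, Hexa, Laptm5, Man2b1, Npc1, Npc2 and Tpp1. Those higher in CA3 than in DG were Cd63, Ctsa, Ctsb, Ctsd, Ctsh, Ctsk, Ctsz, Glb1, Gm2a, Grn, Lamp1, Laptm5, Lipa, Naglu, Npc1, Npc2 and Tpp1. In all, 25 members had a subfield call, 8 were above DG in both CA1 and CA3 (Cd63, Ctsa, Ctsh, Ctsk, Laptm5, Npc1, Npc2 and Tpp1), and 12 members (Asah1, Ctsl, Galc, Lamp2, Manba, Mcoln1, Neu1, Ppt1, Psap, Scarb2, Sgsh and Smpd1) had neither a subfield nor an age call.

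**Figure D5:**
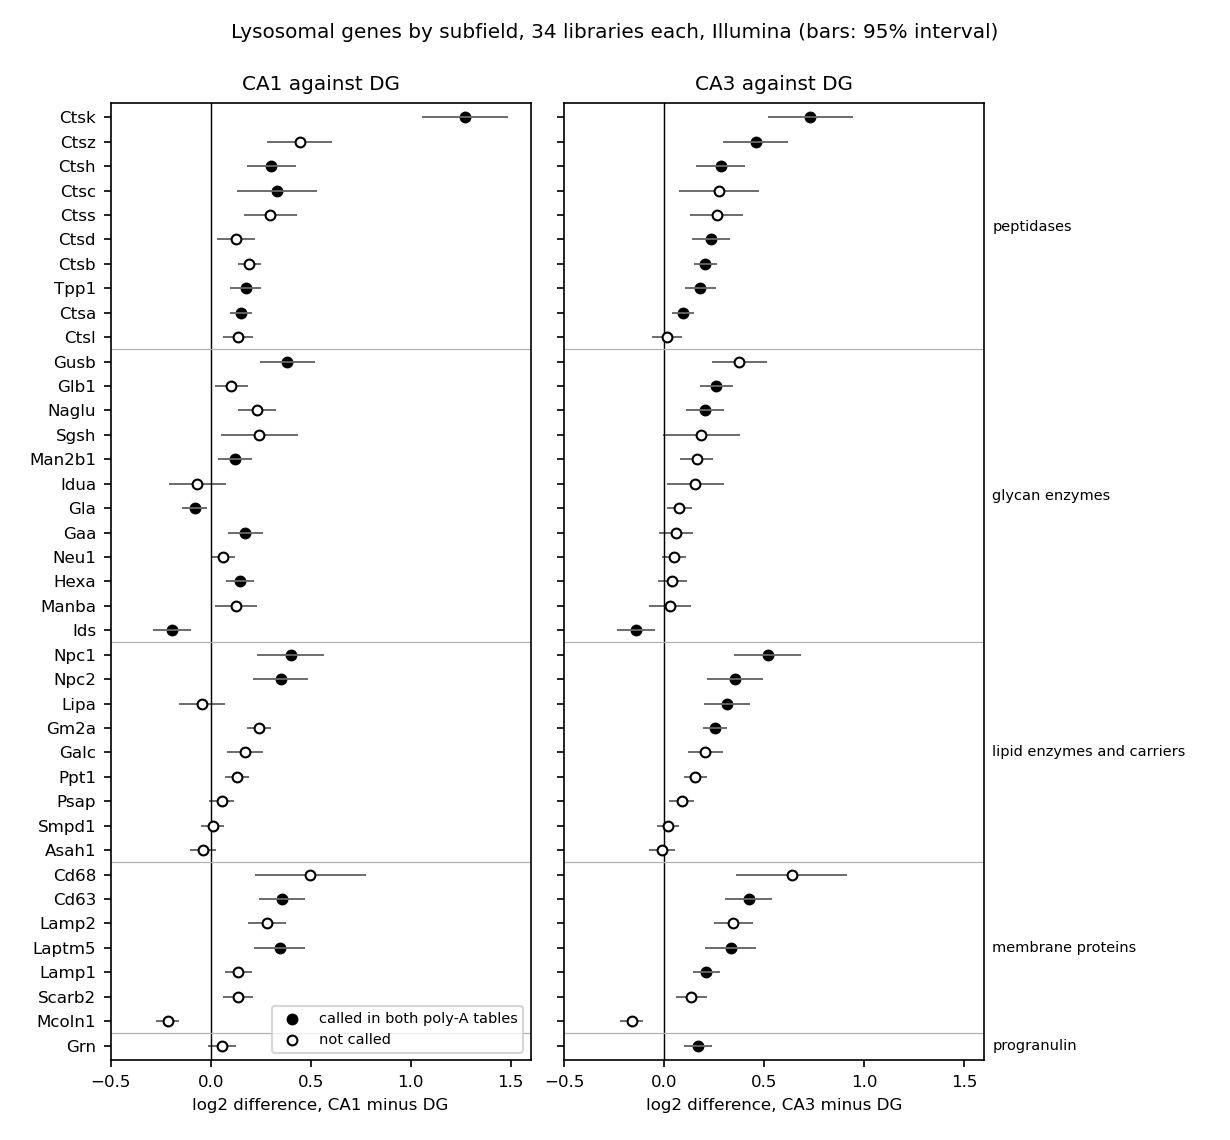
Log2 difference of CA1 (left) and CA3 (right) against DG for the 39 members in Illumina libraries, 34 rats in each subfield, with 95% intervals and filled circles where called in both poly-A tables. Nearly all circles lie right of 0, Ctsk stands farthest out at 1.27 and 0.73, and Ids, Mcoln1 and Asah1 lie left of 0 in both panels.

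Ctsk (ENSRNOG00000021155, chromosome 2) had the largest subfield difference. It ran from 87.2 to 341 (median 205) in CA1, from 82.6 to 558 (median 137) in CA3 and from 52.0 to 188 (median 85.7) in DG. Within rats it was higher in CA1 than in DG in 32 of 34 and higher in CA3 than in DG in 30 of 34. The differences were 1.27 ± 0.11 (adjusted p = 2.38e-18) and 0.73 ± 0.11 (adjusted p = 8.32e-09), with 1.04 and 0.64 in Ion Proton libraries. CA1 exceeded CA3 by 0.54 in Illumina libraries (adjusted p = 2.52e-05), but the Ion Proton difference of 0.40 had an adjusted p of 0.0794. The highest CA3 value was that of young rat R9876, and without the 3 libraries rich in leptomeninges markers the differences from DG were 1.24 and 0.67.

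Npc1, the membrane exporter of lysosomal cholesterol, ran from 855 to 2050 in CA1 (median 1230), from 802 to 2610 in CA3 (median 1390) and from 662 to 1700 in DG (median 916). It lay above DG by 0.40 ± 0.09 in CA1 (30 of 34 rats) and by 0.52 ± 0.09 in CA3 (25 of 34 rats), with 0.40 and 0.51 in Ion Proton libraries. Its partner Npc2 lay above DG by 0.35 and 0.36. Cd63, a tetraspanin of late endosomes, ran from 705 to 1510, from 573 to 1860 and from 564 to 1080 in CA1, CA3 and DG, so that the ranges overlapped. It was higher than DG by 0.36 in CA1 and 0.42 in CA3, in 30 and 33 of 34 rats. Ctsz ran from 152 to 375, from 161 to 595 and from 104 to 300. It was above DG by 0.45 and 0.46, but only the CA3 difference was called, since in CA1 the Ion Proton difference of 0.37 had an adjusted p of 0.0555. With rat as a block that adjusted p was 0.0168 and Ctsz was called in CA1 too. The block lost none of the subfield calls and added Lamp1 in CA1 and Idua and Man2b1 in CA3 as higher than DG, and Ctsd as lower in CA1 than in CA3. Gusb, beta-glucuronidase, was called in CA1 alone, with medians of 103, 98.7 and 77.0 in CA1, CA3 and DG.

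Ids, the iduronate sulfatase of heparan and dermatan sulfate, ran from 1490 to 2600 in CA1 (median 2120), from 1610 to 3260 in CA3 (median 2170) and from 1720 to 2930 in DG (median 2450). The ranges overlapped, with differences of -0.19 ± 0.05 and -0.14 ± 0.05 and DG the higher in 27 and 26 of 34 rats. Gla, alpha-galactosidase A, ran from 356 to 490 in CA1 and from 392 to 485 in DG and differed by -0.08 ± 0.03 in CA1 against DG. The channel Mcoln1 was lower than DG by 0.22 in CA1 in Illumina libraries, with 2 of 34 rats above DG, but its Ion Proton difference was -0.03 (adjusted p = 0.786) and it was not called. Between CA1 and CA3, Lipa, the acid lipase of cholesteryl esters, ran from 514 to 835 (median 667) and from 501 to 1230 (median 858) and was lower in CA1 in 29 of 34 rats (-0.36 ± 0.06, adjusted p = 3.03e-07). Idua, the iduronidase that acts beside Ids, ran from 481 to 1110 (median 730) and from 431 to 1150 (median 852) and was lower in CA1 in 27 of 34 rats (-0.22 ± 0.07, adjusted p = 0.00977).

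Without the 16 libraries nearer to another subfield Ctsk lay 1.39 and 0.89 above DG in CA1 and CA3, and Lipa between CA1 and CA3 was -0.47. Cell type markers moved with the subfields too. All 19 microglia markers tested were higher in CA1 than in DG (median 0.30, 7 called) and all 19 in CA3 (median 0.27, 10 called). All 10 oligodendrocyte markers were called higher in each, with medians of 0.71 and 0.89. Of 9 neuron markers 6 were called lower in CA1 than in DG and 1 in CA3. The part of cell makeup in the members' subfield differences was not tested.

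Other genes of the lysosomal pathway were read from further lists, drawn up by function with earlier results of these data known. The study itself names Dnase2 and Cd74 as higher with age in these libraries, so their calls are not independent evidence of direction. Of 20 other hydrolases tested 4 were retested for age in the mean of subfields, the asparaginyl endopeptidase Lgmn (0.16), the deoxyribonuclease Dnase2 (0.20), the aspartic protease Ctse (0.43) and the carboxypeptidase Scpep1 (0.11), all higher, and 17 of 20 were above 0 with a median of 0.07. None was retested among 23 other lysosomal membrane proteins, 17 subunits of the vacuolar ATPase that acidifies the lysosome, 15 sorting genes, 16 regulators including Tfeb (0.06, p = 0.505), 20 autophagy genes and 3 cathepsin inhibitors. Of all genes 1.68% were retested, and at that share short lists without a call are not set apart from other genes. Median changes of these lists lay between -0.03 for the ATPase, with 2 of 17 subunits above 0, and 0.05 for the inhibitors. At an unadjusted p under 0.05 in the Illumina table, 3 of the other membrane proteins passed and 0 in each of the other lists named. In CA1 against DG, 10 of 17 ATPase subunits were called lower (13.2% of genes) and 1, Atp6v0e1, higher (13.1%). In CA3 against DG 2 of 17 were called lower, near the share of all genes (14%). Of 6 antigen presentation genes listed 4 were tested and all 4 were retested as higher in aged rats, Cd74 (1.72), RT1-Ba (1.82), RT1-Da (1.83) and RT1-Db1 (2.15), each more than the 0.60 of Cd68.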

How the data were processed

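RNA was measured in CA1, CA3 and DG of 34 rats, 1 library per subfield and rat in each of 3 tables. The authors aligned Illumina reads to rn5 with STAR 2.5 after cutadapt 1.8.3, and Ion Proton reads with TopHat2, counted genes with featureCounts 1.4.4 and normalised the counts with DESeq2 1.16.1. The library type behind the WT columns, its aligner and the use of strand in counting are not given in the sources used here. The labels and the methods name different Illumina kits. The deposited values are a signal, gene counts that the authors divided by 1 size factor per library, and every value was a whole multiple of its library's step (100% whole), so reads and depth were recovered. No columns were left unmapped, and no pair of libraries was identical. Tables had been normalised separately, so tests stayed within a table.

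Values were tested as log2(value + 1) with limma 3.58.1 (trend, genes averaging 10 or more) in R 4.3.3, with Benjamini-Hochberg adjustment over all genes of a table, and a log2 change understates that of low genes. Subfield calls needed an adjusted p under 0.05 in both poly-A tables in the same direction. Age and maze class were retested as p under 0.01 in Illumina and one-sided p under 0.05 in Ion Proton libraries. The 3 libraries of a rat come from the same animal, which pairs them, and the age by subfield test held rat as a block. Each rat was a separate animal. Correlations used two-sided permutation tests, adjusted over all genes tested in both poly-A tables other than the markers. The steps were tested on simulated data.

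Members and lists were chosen with earlier results of these data known. Levels were given for members retested in the mean or in at least 2 subfields, for the largest called subfield differences and for Ctss, Ctsz, Npc2, Ctsd and Laptm5, which the study names. From the other lists the genes retested in the mean were named, at most 4 by smallest p. Genes named outside these limits were chosen after their values were seen. Alternatives were edgeR 4.0.16 and DESeq2 1.42.0 on recovered reads, a pseudocount of 0.1, no filter, quantile normalisation, the WT table, the rat number series, and leaving out rats or libraries. Symbols and promoters came from the tables and RefSeq (GRCr8). Coordinates of rn5 were not used here.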

Additional observations from a re-analysis of the deposited data

Results flagged for a closer look

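Among the 10 young rats, the highest or lowest value stood apart from the others in 9 of 28 gene and subfield groups examined, by a gap larger than 0.466 of the group's range (Dixon's test), where chance gives about 5%, or 1 in 20 groups. These groups share rats and are not independent. Rat R9780 accounted for 6 of them. Its CA1 library gave 4750 normalised reads for Ctsd against at most 4210 in the other young rats, 1970 for Npc2 against 1390, 653 for Laptm5 against 525 and 3720 for Ctss against 2980. In its mean of subfields Npc2 was 1650 against 1330 and Ctss 3330 against 2690. Its summed level of microglia markers was 9280 in CA1 and 8660 in CA3, the highest of the young rats in both, and the part of this in the values was not tested. The CA3 library of young rat R9876, the one with a leptomeninges sum of 150000, gave 51.6 for Cd68 against 29 in the next young rat, and 1270 for Grn against 1050. The DG library of rat R9881 gave 238 for Ctsz against 171.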

How the results depend on the processing

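Of 218 counts of members under other settings 186 stayed within 1.5 times the reported count, and 19 of 578 did not when 1 rat was left out. Of the log2 age changes of named members, 71 of 455 gained or lost the call under other settings and 55 of 1190 when 1 rat was left out, and 0 reversed in Illumina libraries. Signs did change among uncalled values, as for Cd68 with age in Ion Proton CA3 libraries (0.53, and -0.07 without the libraries nearer to another subfield) and Cd63 in Illumina CA3 libraries (0.04 without the leptomeninges-rich libraries). Leaving out the latter lost the CA1 call of Tpp1. Maze class and the age by subfield test gave 0 members throughout. With the WT table in place of Ion Proton, CA1 against CA3 gave 7 members instead of 2 (23.1% of genes against 14.1%), CA1 against DG 24 instead of 15 (38.7% against 26.4%), and age 10, 4 and 5 in CA1, CA3 and DG instead of 6, 1 and 10 (1.38%, 0.533% and 0.942% of genes). With DESeq2 and with edgeR, age gave 11 in CA1 (1.17% and 1.1% of genes) and 4 in CA3 (0.681% and 1.1%). At adjusted p under 0.05, DESeq2 gave 8, 1 and 6 in CA1, CA3 and DG instead of 5, 0 and 2 (0.416%, 0.119% and 0.485% of genes), and the WT in place of the Illumina table gave 1 in DG (0.118%). With the number series as a covariate the retested CA1 count was 10 (1.32%) and the adjusted counts were 10 in CA1 (0.789%) and 7 in DG (0.663%). Rats below 9000 alone gave 3, 0 and 6 in CA1, CA3 and DG (0.603%, 0.248% and 0.667%), 6 in the mean (0.835%), 1 for OG (0.432%) and 6 for OB against young (0.849%), and adjusted 2 in CA1 (0.0922%) and 4 in DG (0.143%). Rats from 9000 up gave 6 in DG (0.626%), 7 for OB against young (1.39%), and adjusted 0 in CA1 and DG (0.00703% and 0.0427%). Without the deeply sequenced rats the CA3 count was 4 (0.553%) and the adjusted DG count 1 (0.143%), and quantile normalisation gave 0 in CA3 (0.463%). The cause of these shifts was not tested, and each series alone holds fewer rats.

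With rat as a replicate block, subfield counts were 3 for CA1 against CA3, 17 for CA1 and 20 for CA3 against DG, and without the block the age by subfield test gave 0. The pairing moved no count by over 1.5 times and lost no call.

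Leaving out 1 rat gave 2 to 4 members for CA1 against CA3 (4 without R9870), 12 to 19 for CA1 against DG and 16 to 21 for CA3 against DG. Age gave 4 to 11 in CA1 (10 without R2232, 11 without R9780), 0 to 4 in CA3 (4 without R1931, 3 without R2221, 2 without R9780, 0 without R2175), 7 to 12 in DG and 10 to 12 in the mean, with 8 to 11 for OG and 9 to 13 for OB against young. Adjusted counts were 2 to 8 in CA1 (2 without R1923 or R9876, 3 without R2221 or R9881, 8 without R1930 or R2232), 0 in CA3, and 2 to 7 in DG (4 without R2184, R2230, R2237 or R9780, 5 without R2233, 7 without R9881). Without the 3 leptomeninges-rich libraries or the CA3 library of R2238, chosen after seeing the data, the mean count was 11 each. Adjusted over the members alone, 17 members correlated with the microglia markers in Illumina and 20 in Ion Proton libraries, against 13 and 13 adjusted over all genes, an adjustment also chosen after seeing the data. Depth limits Cd68 and Sgsh most.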

Other observations

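Single CA3 dissections held many of the highest member values. The library of impaired rat R2238 was the highest of 34 for 11 members in Illumina libraries (Ctsb, Ctss, Ctsz, Glb1, Man2b1, Galc, Npc2, Ppt1, Cd68, Laptm5 and Grn) and for 8 in Ion Proton libraries, where its microglia sum was 18400 against at most 9620 elsewhere. In CA1 and DG the same rat was the highest for 0 members in Illumina libraries. Without that library, a setting chosen after seeing the data, the age change in CA3 was 0.36 for Ctsz and 0.30 for Npc2, and the count retested in CA3 was 1. The CA3 library of young rat R9876 was the highest for 10 other members (Ctsa, Ctsc, Ctsh, Ctsk, Ctsl, Gusb, Hexa, Naglu, Lipa and Cd63), and for 8 in Ion Proton libraries.

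The vacuolar ATPase subunits had a median log2 difference of -0.16 between CA1 and DG and 0.02 between CA3 and DG, with 10 and 2 of 17 called lower (13.2% and 14% of genes), while the median of the 39 members was 0.15 and 0.21 in those contrasts.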
